A study of Mus musculus with 4 samples.

Results

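The dual-specificity MAP kinase phosphatases are the enzymes that switch MAP kinases off. The 10 genes described here were taken by gene symbol from a count table of 40092 genes. They are *Dusp1*, *Dusp2*, *Dusp4*, *Dusp5*, *Dusp6*, *Dusp7*, *Dusp8*, *Dusp10*, *Dusp14* and *Dusp16*. Their expression was not a criterion, but earlier results of these data were known when they were chosen. RNA-seq was performed on GFP+ alveolar type II (AT2) cells, the surfactant-producing progenitors of the alveolus, sorted from mouse lung at day 14 after bleomycin injury. The control group (Ctrl, n = 2 libraries) carried Alkbh5flox/+; Sftpc-CreERT2; Rosa26-mTmG, and the conditional knockout group (A5-CKO, n = 2 libraries) carried Alkbh5flox/flox; Sftpc-CreERT2; Rosa26-mTmG. Both groups received tamoxifen and bleomycin, and both carried the Cre driver, the reporter and at least 1 floxed *Alkbh5* allele. The controls were heterozygous for the floxed allele, so the comparison is between cells that can lose 1 copy and cells that can lose both. Sftpc-CreERT2 acts in cells that express surfactant protein C at the time of tamoxifen, and the GFP gate keeps their descendants as well. The age of the mice is not given in the sources used here. Alkbh5 is an enzyme that removes N6-methyladenosine (m6A) from RNA.

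MAP kinases (ERK, JNK and p38) are activated by phosphorylation of a threonine and a tyrosine in their activation loop, and these phosphatases remove both phosphates. Many of their genes are themselves induced by MAP kinase signalling, which closes a negative feedback loop. The family is usually ordered by location and substrate: the inducible nuclear enzymes (*Dusp1*, *Dusp2*, *Dusp4*, *Dusp5*), the cytoplasmic enzymes that prefer ERK (*Dusp6*, *Dusp7*), the enzymes that prefer JNK and p38 (*Dusp8*, *Dusp10*, *Dusp16*), and *Dusp14*, a small phosphatase that lacks the MAP kinase binding domain. In AT2 cells, growth factor receptors such as EGFR and FGFR2 signal through ERK, and JNK and p38 respond to injury and stress.

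Promoter sequences were available from the RefSeq promoter table (GRCm38.p6, 250 bases before to 50 bases after each start site) for 9 of the 10 genes. *Dusp4* was not matched. Only 1 start site per gene, the first listed, was used, so promoters at other start sites were not searched. For *Dusp8*, *Dusp14* and *Dusp16* the whole window lay inside the gene span given below. They were searched on both strands for 4 motifs of signal-responsive transcription, the cAMP response element TGACGTCA, the AP-1 site TGANTCA, the ETS site CCGGAAG and the CArG box, which is the core of the serum response element, and for the TATA box TATAAA, a general core promoter element. The palindromic motifs were counted once, and no match of one motif overlapped a match of another. The 3 promoters that held any of them are shown because they hold the binding motifs of factors through which signalling is known to induce immediate early genes. Capitals mark the matches.

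Dusp1 promoter, chr17:26508423-26508722, minus strand: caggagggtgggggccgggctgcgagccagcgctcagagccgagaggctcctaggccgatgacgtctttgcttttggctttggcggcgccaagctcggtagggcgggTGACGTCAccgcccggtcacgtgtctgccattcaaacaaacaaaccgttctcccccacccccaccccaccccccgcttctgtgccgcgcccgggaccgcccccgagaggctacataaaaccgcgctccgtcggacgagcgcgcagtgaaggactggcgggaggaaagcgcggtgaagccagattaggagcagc

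Dusp5 promoter, chr19:53528895-53529194, plus strand: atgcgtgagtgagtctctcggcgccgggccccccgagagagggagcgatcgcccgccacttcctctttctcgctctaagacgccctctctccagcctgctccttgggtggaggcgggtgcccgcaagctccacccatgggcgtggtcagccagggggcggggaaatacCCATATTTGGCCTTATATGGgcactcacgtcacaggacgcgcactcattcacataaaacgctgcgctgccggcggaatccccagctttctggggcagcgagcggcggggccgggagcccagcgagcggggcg

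Dusp8 promoter, chr7:142095235-142095534, minus strand: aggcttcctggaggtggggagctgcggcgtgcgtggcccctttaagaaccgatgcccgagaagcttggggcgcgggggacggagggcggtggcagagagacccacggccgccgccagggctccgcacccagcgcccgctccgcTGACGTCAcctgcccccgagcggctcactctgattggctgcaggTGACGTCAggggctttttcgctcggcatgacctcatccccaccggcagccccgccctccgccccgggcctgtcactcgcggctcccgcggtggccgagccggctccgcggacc

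*Dusp1* held 1 cAMP response element, at -143 to -136 from the start site. *Dusp8* held 2, at -107 to -100 and at -63 to -56. The motif was thus present in 2 of 9 members, against 1.88% of the 27018 mouse promoters in the table. *Dusp5* held 2 CArG boxes side by side, at -82 to -73 and at -72 to -63, and was the 1 member with this motif, which 1.57% of all promoters held. The AP-1 site, the ETS site and the TATA box were in 0 of 9 windows, against 7.94%, 9.12% and 14.2% of all promoters, and a window without these letters says nothing about the factor elsewhere. The member promoters had a median GC content of 68.7%, against 52.7% for all promoters. These matches describe the letters in the windows, and binding was not measured.

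Because the deleted enzyme acts on m6A, the longest protein-coding transcript of each member (GENCODE M21, GRCm38) was also searched on its sense strand for GGACT, a common form of the sequence in which m6A is placed. The median over 13692 tested protein-coding genes was 1.05 GGACT per kb, and 92.8% of them held at least 1. *Dusp6* had 8 matches (2.86 per kb, percentile 97.3 among these genes), *Dusp4* had 6 (2.19 per kb, percentile 91.5) and *Dusp1* had 4 (2.01 per kb, percentile 88.6). *Dusp2* had 0. The remaining members lay between 0.809 per kb (*Dusp5*) and 1.27 per kb (*Dusp14*). Matches in *Dusp6* fell mainly in the coding sequence (6 of 8). The match nearest the stop codon is shown for the 3 densest members and for the 2 members with the smallest p below, with GGACT in capitals.

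Dusp6 transcript, chr10:99266270-99266290, plus strand, exon 3: taccaggtGGACTccctgcag

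Dusp4 transcript, chr8:34818775-34818795, plus strand, exon 4: agctgttaGGACTcgtctctg

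Dusp1 transcript, chr17:26505996-26506016, minus strand, exon 4: aagagaaaGGACTctgtttga

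Dusp5 transcript, chr19:53541509-53541529, plus strand, exon 4: ggctctcgGGACTgtatggaa

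Dusp10 transcript, chr1:184075091-184075111, plus strand, exon 4: agctcagtGGACTcggctcgc

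The *Dusp6* match starts 21 bases before the last base of the coding sequence, and the *Dusp4* match begins on the last base of the stop codon itself. Those of *Dusp1*, *Dusp5* and *Dusp10* lie in the 3′ UTR, 272, 195 and 576 bases past the stop codon. Methylation of these sites was not analysed here.

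The 4 libraries held between 18144865 and 20811757 counts. *Alkbh5* (chr11:60537683-60558512) was at 81.7 and 152 CPM (counts scaled to the effective size of each library) in Ctrl and at 19.3 and 36.6 CPM in A5-CKO. The difference was -2.06 on the log2 scale (SE 0.46, edgeR adjusted p = 0.528), so the labels matched the counts in every library. Cre removes the part of *Alkbh5* that holds the start codon, and reads on the rest of the gene still count to it. AT2 markers were abundant in all libraries, with *Sftpc* between 7860 and 16400 CPM. The summed AT2 markers were 56700 and 82200 CPM in Ctrl and 42200 and 34900 CPM in A5-CKO, and in 7 of 10 of these markers the groups did not overlap, with A5-CKO lower (23.5% of all tested genes). In bulk RNA fewer cells of a type and less RNA per cell cannot be told apart. AT1 markers went in both directions. In 4 of the 6 tested, *Hopx*, *Cav1*, *Akap5* and *Clic5*, the groups did not overlap with A5-CKO higher (20.3% of all tested genes), and the list's median log2 fold change was 0.69. *Aqp5*, the most abundant of them, was lower, at 981 and 951 CPM in Ctrl against 479 and 636 CPM in A5-CKO, and the AT1 sum was between 1250 and 1500 CPM. *Ager* and *Pdpn*, which define AT1 cells, were under 1 CPM in every library. The part of these AT2 and AT1 differences in the phosphatase counts was not tested. The replicates of each group differed far more than counting error allows (chi-square over degrees of freedom, 115 in Ctrl and 110 in A5-CKO). The labels do not state that each library came from a separate animal, so p-values measure the spread between these libraries, which may be in part technical.

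All 10 phosphatase genes were expressed above the filter on low counts. To compare levels between genes, CPM was divided by exon length in kb. *Dusp1* was the highest in every library (mean 182 CPM per kb, from 130 to 226), and its lowest library lay above the highest library of any other member. *Dusp6* followed at 29.5 CPM per kb (from 21.5 to 39.8), then *Dusp7* at 16.7 (from 10.8 to 21.6), and the ranges of these neighbours just touched. *Dusp16* (11.4 CPM per kb), *Dusp4* (9.95) and *Dusp14* (9.79) had overlapping ranges. No order could be read among them, or for *Dusp16* against *Dusp7*. The range of *Dusp4* overlapped that of *Dusp7*, but within each library *Dusp7* was the higher. The lowest mean levels were those of *Dusp8* (4.89 CPM per kb), *Dusp5* (4.35), *Dusp10* (3.44) and *Dusp2* (2.74), whose ranges also overlapped. The ranges of *Dusp8* and *Dusp5* overlapped that of *Dusp4* as well. In A5-CKO 1 they were at 7.41 and 7.6 CPM per kb, above *Dusp4* at 6.61. By mean level *Dusp6* thus stood next to *Dusp1*, whereas *Dusp2* and *Dusp5*, inducible nuclear enzymes like *Dusp1*, stood near the bottom. Exon lengths came from GENCODE M21, which may differ from the annotation of the counts, so the levels per kb are approximate.

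**Figure D1:**
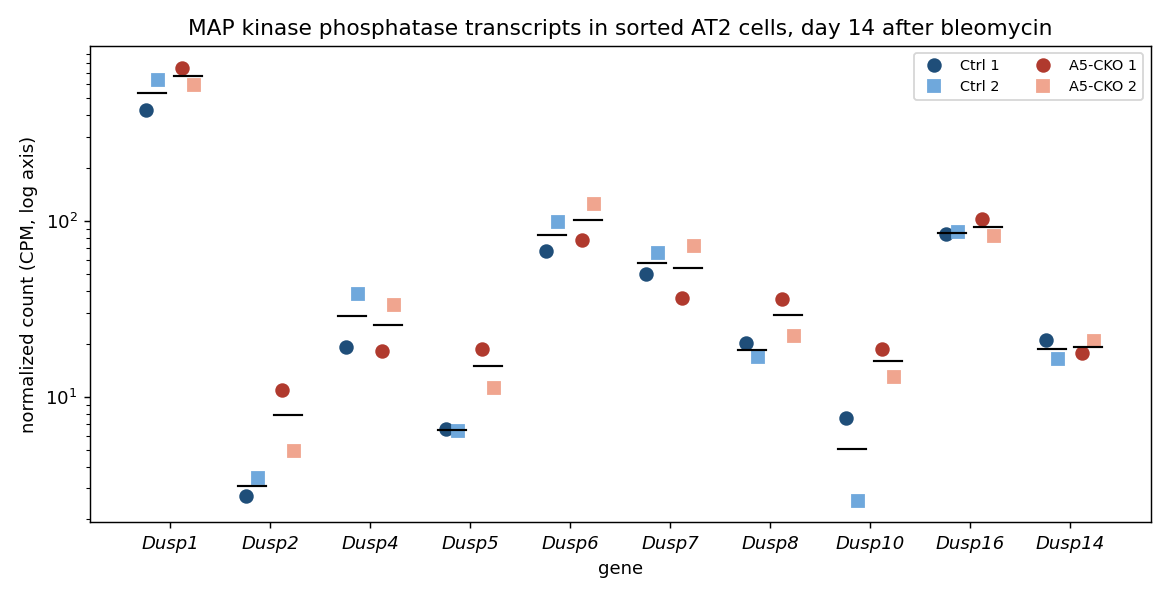
Normalized counts of the 10 phosphatase genes (y axis, CPM, log axis) by gene (x axis), with 1 point for each library and a short bar for each group mean. *Dusp1* sits between 432 and 749 CPM, above all other members, and the Ctrl and A5-CKO points are separate for *Dusp2*, *Dusp5*, *Dusp8* and *Dusp10*.

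The genotypes were then compared in a fit of all 16661 genes that passed the filter (quasi-likelihood test of edgeR, p-values adjusted by the Benjamini-Hochberg method). No member passed an adjusted p of 0.05, and neither did any other gene (0%), with adjusted p between 0.528 and 0.974 over the members. At an unadjusted p under 0.05, 2 of 10 members were higher in A5-CKO (*Dusp5* and *Dusp10*) and 0 were lower. Over all tested genes these shares were 4.48% higher and 4.71% lower. In 4 of 10 members the lower A5-CKO value exceeded the higher Ctrl value, as in 20.3% of all tested genes, and in 0 of 10 the reverse held, as in 23.5%. The median log2 fold change was 0.3 over the members and -0.02 over all tested genes. DESeq2, which called 57 genes (0.328%) across the table, also called 0 of 10 members, with 3 under an unadjusted p of 0.05, and limma voom called 0 with 2. The unadjusted count changed with the libraries used. It was 0 without A5-CKO 1 or without Ctrl 2, 1 without Ctrl 1 and 3 without A5-CKO 2. The log2 fold change of *Dusp5* was 1.16 without Ctrl 2 and 1.3 without Ctrl 1, close to the 1.21 of all libraries, and that of *Dusp10* was 1.04 and 2.71. Permuting 2 against 2 libraries cannot give a two-sided p under 0.33.

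Among the inducible nuclear phosphatases, *Dusp1* (chr17:26505591-26508472), which acts on JNK, p38 and ERK and is induced within minutes of many stimuli, was at 432 and 638 CPM in Ctrl and at 749 and 593 CPM in A5-CKO. The groups overlapped, since A5-CKO 2 lay below Ctrl 2. The log2 fold change was 0.33 (SE 0.37, 95% interval -0.55 to 1.2, edgeR adjusted p = 0.761), an interval that reaches from a modest fall to more than a doubling. *Dusp4* (chr8:34807610-34819894), an ERK and JNK phosphatase, was at 19.1 and 38.5 CPM in Ctrl and at 18.1 and 33.3 CPM in A5-CKO. Here the libraries numbered 2 were high in both genotypes and the genotype means were close, at 28.8 ± 13.7 and 25.7 ± 10.8 CPM (SD, n = 2 each). The log2 fold change was -0.16 (SE 0.48), and its sign turned when counts were scaled by totals only (0.18) or corrected for GC content and length (0.07).

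*Dusp5* (chr19:53529145-53541809), an ERK-specific nuclear phosphatase and itself an ERK target, had nearly the same level in both Ctrl libraries, 6.56 and 6.40 CPM. In A5-CKO it was at 18.8 and 11.2 CPM. Both A5-CKO libraries were higher, and A5-CKO 1 was the higher of them. The means were 6.48 ± 0.116 and 15.0 ± 5.34 CPM (SD, n = 2 each), with a log2 fold change of 1.21 (SE 0.46, 95% interval 0.11 to 2.31). Its unadjusted p was 0.0356 in edgeR and its adjusted p 0.528. Leaving out A5-CKO 1 brought the log2 fold change to 0.79, with an unadjusted p of 0.211. This is the member whose promoter holds the paired CArG boxes printed above. The part of these boxes in its counts was not tested.

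*Dusp2* (chr2:127336159-127338377), a nuclear phosphatase of ERK and p38 best known from activated leukocytes, had the lowest mean level per kb, at 2.72 and 3.43 CPM in Ctrl and 10.9 and 4.92 CPM in A5-CKO. These values rest on 46 and 59 counts against 240 and 115. The groups did not overlap, and the log2 fold change was 1.36 (SE 0.60, 95% interval -0.06 to 2.78, edgeR adjusted p = 0.528). It was 0.67 without A5-CKO 1, the library with the highest value. Lymphocyte markers summed to 107 and 90.9 CPM in Ctrl and to 76.6 and 41.9 CPM in A5-CKO. Of these 8 markers, 7 passed the filter, with none at 0 in any library. *Ptprc*, the pan-leukocyte marker CD45, was at 50.9 and 22.5 CPM in Ctrl and at 84.3 and 82.8 CPM in A5-CKO, while the whole leukocyte and macrophage list summed to 4520 and 4870 CPM against 3720 and 2920 CPM, with none of its 10 markers at 0 and most of the sum from *Cd74*, which AT2 cells also express. The part of other cells in the *Dusp2* counts was not tested.

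Of the cytoplasmic ERK phosphatases, *Dusp6* (chr10:99263231-99267489), a feedback inhibitor widely read as a gauge of ERK activity, was at 67.3 and 99.5 CPM in Ctrl and at 77.9 and 125 CPM in A5-CKO. The ranges overlapped, and in each genotype the library numbered 2 was the higher. Its log2 fold change was 0.28 (SE 0.36, 95% interval -0.58 to 1.14, edgeR adjusted p = 0.802) and was -0.10 without A5-CKO 2. *Dusp7* (chr9:106368560-106375724), its closest relative in substrate choice, showed the same order of libraries within each genotype, with 49.8 and 65.5 CPM in Ctrl and 36.3 and 72.5 CPM in A5-CKO. Ctrl lay inside the A5-CKO range, and the log2 fold change was -0.08 (SE 0.40, 95% interval -1.03 to 0.86, edgeR adjusted p = 0.949), with a positive sign under total counts, upper-quartile factors and the GC and length correction. Neither cytoplasmic ERK phosphatase therefore differed between the genotypes by more than the spread between replicates, and the intervals leave room for changes in either direction.

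In 2 of the 3 JNK and p38 phosphatases the libraries of the genotypes did not overlap, with A5-CKO higher, as in 20.3% of all tested genes. *Dusp10* (chr1:184034381-184075636), which inactivates JNK and p38, was at 7.57 and 2.56 CPM in Ctrl and at 18.7 and 13.0 CPM in A5-CKO, from 128 and 44 against 414 and 304 counts. The Ctrl libraries themselves differed nearly as much, in proportion, as the groups did. The means of 5.06 ± 3.54 and 15.9 ± 4.07 CPM (SD, n = 2 each) gave a log2 fold change of 1.65 (SE 0.61, 95% interval 0.19 to 3.1), with the smallest unadjusted p of the members (0.0318 in edgeR, adjusted p = 0.528). It ranged from 1.04 without Ctrl 2 to 2.71 without Ctrl 1, and its adjusted p from 0.277 to 0.899 over 12 alternatives.

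*Dusp8* (chr7:142079487-142095907), a JNK and p38 phosphatase best known from neurons and heart, was at 20.2 and 16.8 CPM in Ctrl and at 36.1 and 22.1 CPM in A5-CKO. A5-CKO 2 lay only just above Ctrl 1. The log2 fold change was 0.65 (SE 0.39, 95% interval -0.27 to 1.58, edgeR adjusted p = 0.578), and 0.26 without A5-CKO 1. *Dusp16* (chr6:134715468-134807063), a JNK phosphatase that shuttles between nucleus and cytoplasm, varied little, at 84.1 and 87.1 CPM in Ctrl and at 103 and 82.0 CPM in A5-CKO. Its log2 fold change was 0.11 (SE 0.29, 95% interval -0.57 to 0.79, edgeR adjusted p = 0.908) and -0.10 after the GC and length correction. *Dusp14* (chr11:84048033-84069256), the atypical member, was at 21 and 16.5 CPM in Ctrl and at 17.8 and 20.8 CPM in A5-CKO, so that both A5-CKO libraries fell between the Ctrl libraries. Its log2 fold change was 0.04 (SE 0.36, 95% interval -0.82 to 0.91, edgeR adjusted p = 0.974).

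**Figure D2:**
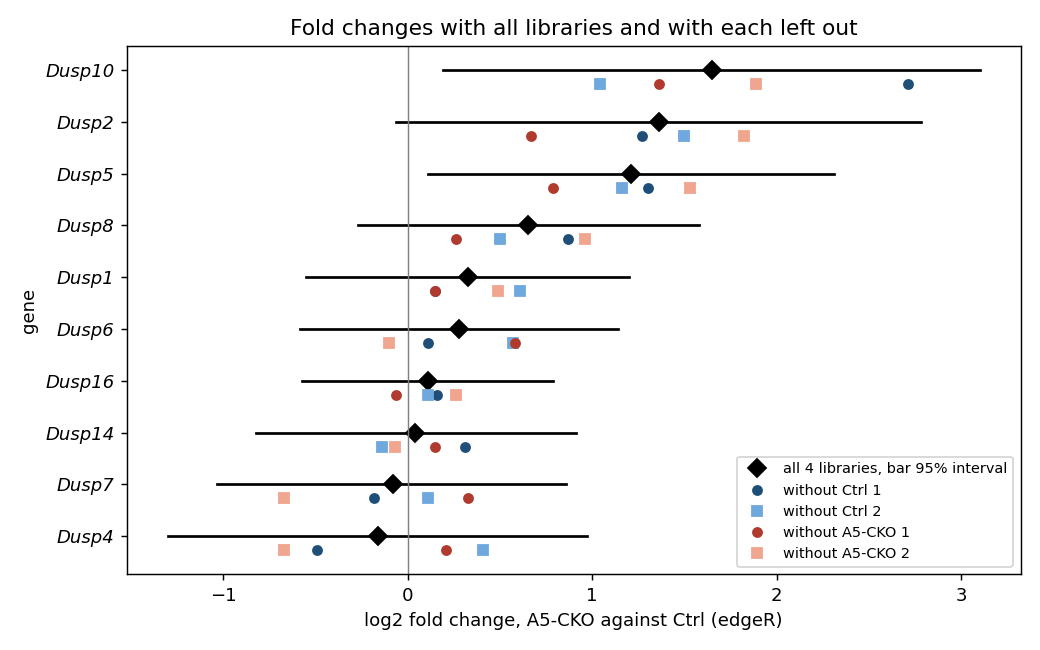
Log2 fold changes of A5-CKO against Ctrl (x axis) for each phosphatase gene (y axis) from edgeR, with black diamonds and 95% intervals for all 4 libraries and coloured points for fits that leave out 1 library. *Dusp10*, *Dusp2*, *Dusp5*, *Dusp8* and *Dusp1* stay above 0 in every fit shown, whereas *Dusp4*, *Dusp6*, *Dusp7*, *Dusp14* and *Dusp16* change sign in at least 1.

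The members did not follow a single pattern over the libraries. A5-CKO 1 was the highest library for 6 of 10 members (*Dusp1*, *Dusp2*, *Dusp5*, *Dusp8*, *Dusp10* and *Dusp16*), A5-CKO 2 for 2 (*Dusp6* and *Dusp7*), Ctrl 2 for *Dusp4* and Ctrl 1 for *Dusp14*. The cytoplasmic ERK phosphatases *Dusp6* and *Dusp7*, together with *Dusp4*, were instead lower in A5-CKO 1 than in A5-CKO 2, as was *Dusp14*. The same A5-CKO 1 library was the highest for 10 of 17 tested immediate early genes, the genes that cells switch on first after a stimulus or during tissue dissociation. The immediate early genes summed to 4360 and 7670 CPM in Ctrl, 13000 CPM in A5-CKO 1 and 3850 CPM in A5-CKO 2. *Atf3*, a stress-induced factor, was at 118 and 123 CPM in Ctrl, 1150 CPM in A5-CKO 1 and 135 CPM in A5-CKO 2. When A5-CKO 1 was left out, the immediate early list's median log2 fold change went from 0.67 to -0.09, and the median of all genes was then -0.08. The phosphatases moved in both directions: *Dusp2* went from 1.36 to 0.67, *Dusp5* from 1.21 to 0.79 and *Dusp8* from 0.65 to 0.26, while *Dusp6* went from 0.28 to 0.58, *Dusp7* from -0.08 to 0.33 and *Dusp4* from -0.16 to 0.21. The part of the immediate early response of A5-CKO 1 in the values of single members was not tested.

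**Figure D3:**
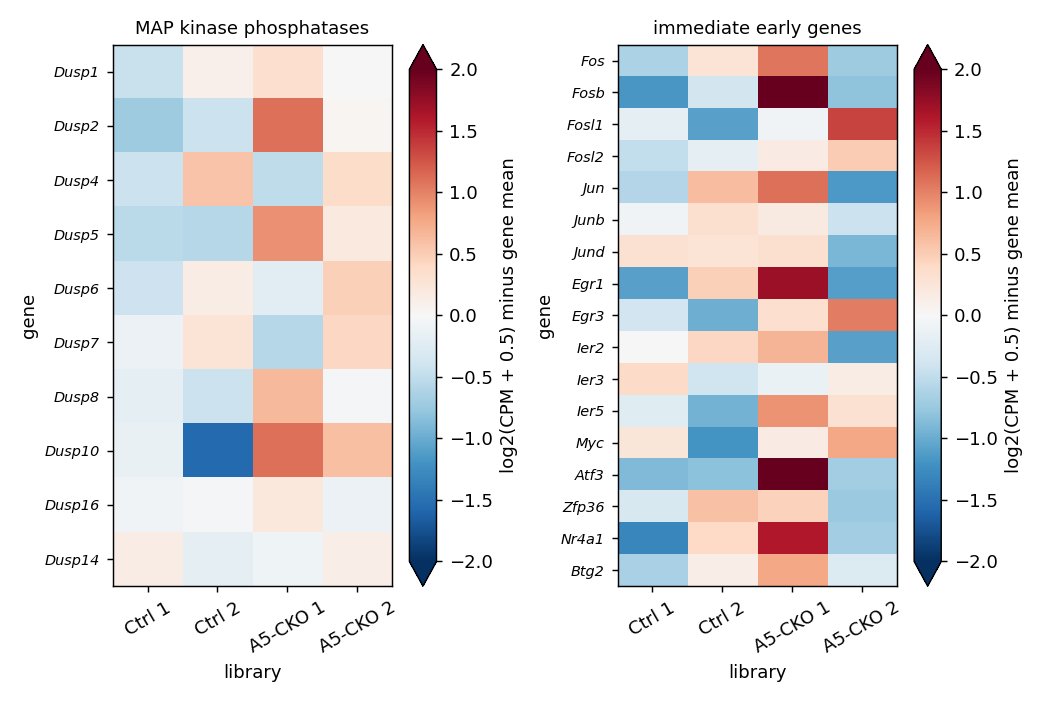
Log2(CPM + 0.5) minus the gene's mean over the 4 libraries (colour) for the 10 phosphatase genes (left) and the 17 tested immediate early genes (right), with libraries on the x axis and genes on the y axis. A5-CKO 1 is the highest library for 6 of the phosphatases and for 10 of the immediate early genes.

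The other genes of the pathway were read from the same fit, as 9 lists with 76 of 86 genes tested. None was called by edgeR (0%), and at an unadjusted p under 0.05, 8 were higher and 3 lower in A5-CKO, beside 4.48% higher and 4.71% lower over all tested genes. DESeq2 called 1, *Mapk13*. Among the kinases that the phosphatases act on, *Mapk3*, which encodes ERK1, was the most abundant, at 402 and 389 CPM in Ctrl and at 241 and 227 CPM in A5-CKO. Its replicates were close in both genotypes and its log2 fold change was -0.76 (SE 0.31, edgeR adjusted p = 0.528), or -0.40 after the GC and length correction. *Mapk13*, the p38 delta gene, was at 0.650 and 0.465 CPM in Ctrl, at 0.770 CPM in A5-CKO 1 and at 18.1 CPM in A5-CKO 2. The log2 fold change of 4.07 came from that library and was 0.46 without it. The MAP kinases had a median log2 fold change of 0.14 over 9 genes.

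Upstream, the MAP kinase kinases had a median log2 fold change of -0.43 over 7 genes, with none under an unadjusted p of 0.05. After the GC and length correction the median was -0.19, and *Map2k2* was at -0.27. *Map2k3*, an activator of p38, was the most abundant (162 ± 35.1 CPM in Ctrl and 121 ± 28.8 CPM in A5-CKO, SD, n = 2 each), and *Map2k2*, which encodes MEK2, had the smallest p (log2 fold change -0.62, SE 0.30, edgeR adjusted p = 0.535). In the RAS and RAF list *Braf*, the kinase that activates MEK, was at 34.2 and 45.1 CPM in Ctrl and 93.3 and 67.3 CPM in A5-CKO, which gave 1.02 on the log2 scale (SE 0.32, edgeR adjusted p = 0.528). Correction for GC content and length left 0.38. Of the 8 kinases that feed JNK and p38, *Map3k1* (log2 fold change 0.91) and *Map3k2* (0.85) were higher in A5-CKO at an unadjusted p under 0.05, and *Map3k11* was lower (-1.13). After the same correction *Map3k2* was at 0.07 and *Map3k11* at -0.91. The most abundant of them, *Map3k3*, was at 107 ± 28.0 and 99.1 ± 22.1 CPM (SD, n = 2 each).

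The remaining dual-specificity phosphatases, which do not all act on MAP kinases, had a median log2 fold change of -0.04 over 15 genes. The groups were separate with A5-CKO higher in 1 and lower in 4, beside 20.3% and 23.5% of all tested genes. *Dusp28* was at 23.3 and 18.9 CPM in Ctrl and 8.65 and 11.8 CPM in A5-CKO (log2 fold change -1.05, SE 0.40), and the most abundant, the RNA phosphatase gene *Dusp11*, was at 130 ± 21.9 and 127 ± 10.3 CPM (SD, n = 2 each). The Sprouty and Spred genes, which restrain RAS and ERK signalling, had a median of -0.01 over 6 genes. *Spry1* varied widely within genotypes (147 and 436 CPM in Ctrl, 269 and 121 CPM in A5-CKO), and *Spred1* was at 111 ± 13.8 and 152 ± 18 CPM (SD, n = 2 each). *Ptpn7*, the 1 tested gene of 3 tyrosine phosphatases of MAP kinases, was at 6.09 ± 4.01 and 5.91 ± 2.53 CPM (SD, n = 2 each).

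Among genes that ERK and stress signalling induce, the immediate early list held 4 of 17 tested genes at an unadjusted p under 0.05, all higher in A5-CKO (4.48% of all tested genes) and 2 of them in A5-CKO 1 alone. *Ier5* was at 81.4 and 49.6 CPM in Ctrl and at 180 and 119 CPM in A5-CKO (log2 fold change 1.19, SE 0.38). *Egr3* rested on 16 and 8 against 42 and 78 counts (log2 fold change 1.88, SE 0.74). *Atf3* and *Fosb* were high in A5-CKO 1 alone, and without that library their log2 fold changes of 2.41 and 2.22 were 0.16 and -0.09. *Jun*, the most abundant, was at 787 and 1800 CPM in Ctrl and at 2530 and 532 CPM in A5-CKO, the widest split within a genotype being the A5-CKO one. The remaining ERK-responsive genes had a median of 0.42 over 8 genes with none under an unadjusted p of 0.05. In that list *Etv5*, also an AT2 gene, was at 716 and 2170 CPM in Ctrl and 849 and 601 CPM in A5-CKO, and *Etv1* at 0.851 ± 0.134 and 2.17 ± 0.44 CPM (SD, n = 2 each).

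**Figure D4:**
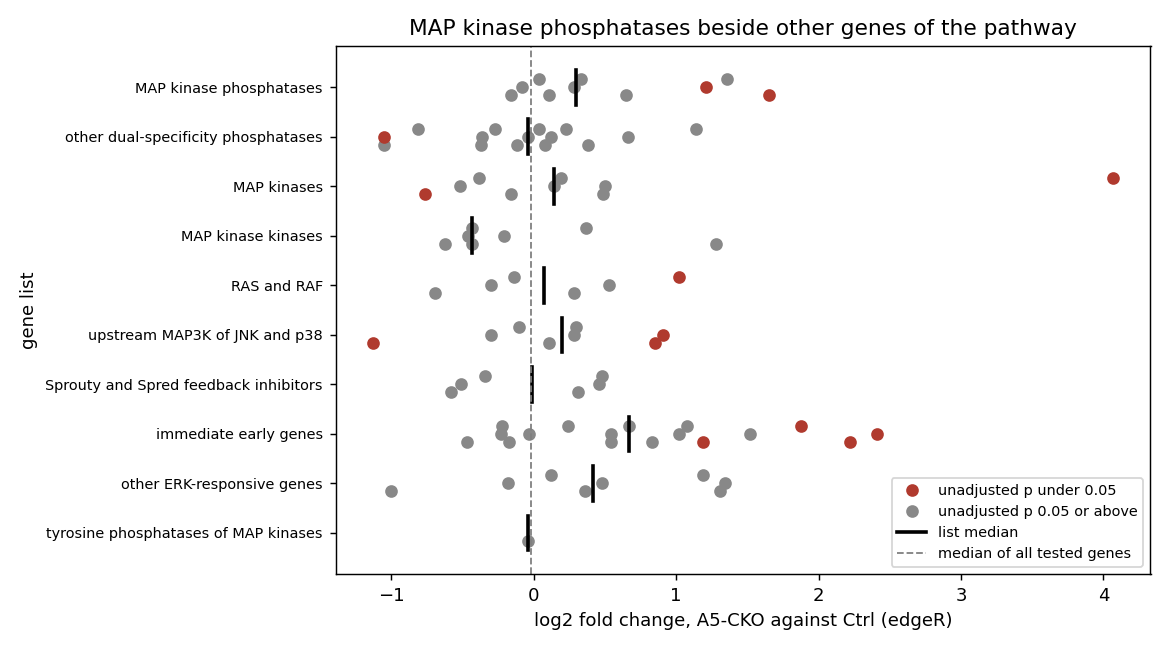
Log2 fold changes of A5-CKO against Ctrl (x axis) for the 10 phosphatases and 9 lists of other pathway genes (y axis), with 1 point for each tested gene, a black bar at the list median and a dashed line at the median of all tested genes (-0.02). Red points have an unadjusted edgeR p under 0.05, and none has an adjusted p under 0.05.

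For each member the listed pathway gene with the most similar pattern was found as the smallest root mean square distance between gene-centred log2 CPM values over the 4 libraries, among 76 genes. *Dusp4* was nearest to *Ccnd1*, the cyclin D1 gene (distance 0.04), and *Dusp6* to *Epha2*, an ephrin receptor gene induced by ERK (0.06). *Dusp7* was nearest to *Dusp3* (0.09), *Dusp16* to *Dusp12* (0.08) and *Dusp1* to *Map3k20* (0.11). *Dusp2* and *Dusp5* were both nearest to *Braf* (0.23 and 0.18) and were each other's nearest member (0.17). *Dusp14* was nearest to *Ier3* (0.16), while *Dusp10* had the most distant neighbour, *Epha4* (0.35). With 4 libraries these distances are a description of the same values given above.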

How the data were processed

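RNA-seq was performed on 4 libraries of sorted AT2 cells. The authors deposited a table of raw read counts per gene. Per the labels' processing notes, reads were trimmed with Trim Galore 0.6.10, aligned to mm10 with HISAT2 2.2.1 and counted with featureCounts 2.0.3. The study's methods state removal of duplicates for RNA-seq, which lowers high counts more than low ones, but describe gene counting, with its annotation, under MeRIP-seq, so which of these steps made the table is uncertain. The strand setting is not given in the sources used here, so overlapping antisense genes cannot be told apart.

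Counts were analysed in R 4.3.3 with edgeR 4.0.16 (TMM factors, filterByExpr, quasi-likelihood test). Benjamini-Hochberg adjustment ran over all 16661 tested genes. The edgeR fit was tested on simulated counts in which 200 genes were given large changes. At the dispersion of these data (0.173) it called 114 of them, with 4 false calls. At a dispersion of 0.02 it called all 200, with 10 false calls. Smaller changes were not simulated. CPM used TMM-scaled library sizes, in which 3 counts are 0.128 to 0.177 CPM. Alternatives were RLE, upper-quartile and total-count scaling, no filter, DESeq2 1.42.0, limma 3.58.1 voom, a replicate block and leaving out each library. A correction for GC content and length of the longest GENCODE M21 transcript (splines with 4 degrees of freedom, 15207 genes) was added after seeing the data.

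The members, pathway lists and markers were chosen with earlier results of these data known. Named were all members, *Alkbh5* and, in each list, genes with an unadjusted p under 0.05, the most abundant gene, the gene of the smallest p and the gene most similar to each member. Marker genes are named outside this rule, and some genes that it names are not reported here.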

Additional observations from a re-analysis of the deposited data

How the results depend on the processing

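Of the 10 phosphatase genes none was called in 12 alternatives, which include DESeq2 and limma voom, or in a crossed pairing. Over all genes, DESeq2 called 57 where edgeR called 0, leaving out 1 library gave 0 to 1 (1 without A5-CKO 2), and DESeq2 called 1 gene of the pathway lists. At an unadjusted p under 0.05, the 1530 genes of the edgeR fit were 754 with a replicate block and 738 to 1634 with 1 library left out (738 without A5-CKO 1). The 2 phosphatases were 4 with total counts only, 1 with a replicate block and 0 to 3 with 1 library left out. The 11 pathway genes were 3 with a replicate block, 7 after the GC and length correction and 4 to 9 with 1 library left out. A lone library left in a group is assumed to vary like the other group.

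Directions held under these 12 alternatives for *Dusp1*, *Dusp2*, *Dusp5*, *Dusp8* and *Dusp10*. The log2 fold change of *Dusp4* turned to 0.18 with total counts only and to 0.073 after the GC and length correction, and ranged from -0.67 to 0.41 with 1 library left out. *Dusp7* turned to 0.023 with upper-quartile factors, 0.24 with total counts only and 0.15 after the correction, and ranged from -0.67 to 0.33. *Dusp16* turned to -0.10 after the correction and ranged from -0.063 to 0.26. *Dusp6* ranged from -0.10 to 0.58 and *Dusp14* from -0.14 to 0.31. The cause of these turns was not tested. Total counts only moved the median of all genes to 0.30, with 1706 genes higher and 171 lower at an unadjusted p under 0.05, against 746 and 784 with TMM factors, 992 and 493 with upper-quartile factors and 366 and 748 after the correction, and the phosphatases' median was then 0.63.

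The replicate numbers did not pair the samples: over 16661 genes the difference between libraries 1 and 2 in Ctrl correlated at -0.36 with that in A5-CKO. A crossed pairing, chosen after seeing the data, gave 230 called genes and 2582 at an unadjusted p under 0.05, among them 0 and 3 phosphatases. Over the 10 phosphatases the same correlation was 0.47, with 6 of the same sign. The biological coefficient of variation was 41.6% over all genes, and the thinnest values of the members rest on 46 (*Dusp2*) and 44 (*Dusp10*) counts.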

Other observations

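The libraries also differed in genes of other cells. Fibroblast markers summed to 398 and 149 CPM in Ctrl and to 96.2 and 1020 CPM in A5-CKO, and *Col1a1*, a collagen gene of fibroblasts, was at 147, 32.5, 21.3 and 386 CPM in the same order. *Mrc1*, a macrophage gene, had 922 and 211 counts in Ctrl and 233 and 2971 counts in A5-CKO. The A5-CKO 2 library, highest in these genes, was also the 1 library with *Mapk13* above 1 CPM and the highest for *Dusp6* and *Dusp7*. Transitional (PATS) markers summed to 4130 and 1440 CPM in Ctrl and 2120 and 4610 CPM in A5-CKO, and the endothelial list to between 97.2 and 217 CPM, with *Cldn5* at 0 counts in all libraries. Club cell markers summed to 2750 and 2670 CPM in Ctrl and 1890 and 1230 CPM in A5-CKO, and ciliated cell markers to 155, 143, 142 and 51.2 CPM. The part of these cells in the phosphatase counts was not tested.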
